A study of Homo sapiens with 3 samples.

Results

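Hepatocytes owe much of their gene expression to a small set of liver-enriched transcription factors, and 8 of these genes were followed here: HNF4A, FOXA1, FOXA2, FOXA3, CEBPA, ONECUT1, NR1H4 and NR5A2. They were chosen by symbol alone, and all 8 were found among the 25270 gene symbols of the series. HepG2, a cell line from a human hepatocellular carcinoma, still makes many liver proteins. The study sequenced total RNA from untreated parental HepG2 cells, from HepG2/metR cells, which are HepG2 survivors of over 5 months under metformin, and from HepG2/metR cells kept for 24 h with oxamate at 40 mM, which blocks lactate dehydrogenase. The metformin selection was the model of a lactate-rich state, and oxamate was used to lower lactate. All cells were labelled as liver, carried the same line name and were grown in the same medium with 10% fetal bovine serum. The sources used here do not say whether HepG2/metR is 1 clone or a pool, or whether metformin was present at harvest. There was 1 library per condition, so no difference below has a replicate check, no p-value is given, and culture and condition cannot be told apart.

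The factors belong to several families of DNA-binding proteins. HNF4A is a nuclear receptor that binds a large share of active liver promoters, and NR1H4 (FXR) and NR5A2 (LRH-1) are nuclear receptors of bile acid and cholesterol metabolism. FOXA1, FOXA2 and FOXA3 are forkhead proteins, of which FOXA1 and FOXA2 can open compacted chromatin early in liver development. CEBPA is a leucine zipper protein that drives metabolic genes and restrains growth, and ONECUT1 (HNF6) acts in hepatocyte and bile duct development. These proteins are known to bind one another's promoters and to form a mutually reinforcing network.

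Promoter sequences were looked up for the factors, because genes that fell together are compared below and their regulatory DNA is where the network is known to act. RefSeq windows on build GRCh38.p14, from 250 bases before to 50 bases after each annotated start, were found for 7 of the 8 genes, with 2 windows each for HNF4A and NR5A2. Shown are both HNF4A windows, that of NR1H4, which held the most motif matches, and that of CEBPA, the richest in CG dinucleotides. Capitals mark matches on either strand to the forkhead motif TGTTTA, the ONECUT motif ATTGAT or the TATA box TATAAA. The sequences run 5′ to 3′ on the strand of the gene.
HNF4A upstream promoter (P2), chr20:44355449-44355748, plus strand: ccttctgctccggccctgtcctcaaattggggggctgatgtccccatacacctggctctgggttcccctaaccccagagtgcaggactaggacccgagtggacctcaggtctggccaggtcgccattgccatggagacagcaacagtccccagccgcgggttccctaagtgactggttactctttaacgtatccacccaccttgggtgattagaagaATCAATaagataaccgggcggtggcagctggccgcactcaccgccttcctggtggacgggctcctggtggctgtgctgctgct
HNF4A downstream promoter (P1), chr20:44400989-44401288, plus strand: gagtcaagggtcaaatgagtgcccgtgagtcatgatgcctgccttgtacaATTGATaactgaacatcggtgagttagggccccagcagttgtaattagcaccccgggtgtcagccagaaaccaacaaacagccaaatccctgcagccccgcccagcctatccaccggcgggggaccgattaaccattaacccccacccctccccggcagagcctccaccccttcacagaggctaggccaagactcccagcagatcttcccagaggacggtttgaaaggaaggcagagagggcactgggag
NR1H4, chr12:100503110-100503409, plus strand: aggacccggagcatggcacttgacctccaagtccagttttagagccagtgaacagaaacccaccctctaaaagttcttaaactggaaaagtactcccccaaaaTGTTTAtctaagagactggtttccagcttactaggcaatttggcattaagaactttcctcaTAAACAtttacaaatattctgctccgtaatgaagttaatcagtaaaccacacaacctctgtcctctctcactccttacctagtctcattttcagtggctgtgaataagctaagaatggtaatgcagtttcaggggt
CEBPA, chr19:33302485-33302784, minus strand: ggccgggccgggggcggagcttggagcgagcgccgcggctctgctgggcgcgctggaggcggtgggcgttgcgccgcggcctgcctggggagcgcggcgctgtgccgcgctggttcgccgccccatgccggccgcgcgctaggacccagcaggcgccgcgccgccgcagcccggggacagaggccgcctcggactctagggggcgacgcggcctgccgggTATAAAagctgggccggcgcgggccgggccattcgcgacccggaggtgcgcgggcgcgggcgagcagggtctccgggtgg

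The downstream HNF4A window, P1, is the promoter known for its use in adult liver, and it held the ONECUT motif at -200, counted from the annotated start to the first base of the match. The upstream window, P2, held the ONECUT motif at -33. In the NR1H4 window the forkhead motif stood at -147 and -86. The CEBPA window held a TATA box at -30. Over 6 motifs searched on both strands, the forkhead motif was found in windows of 2 of the 7 genes (NR1H4 and NR5A2), the ONECUT motif in 1 (HNF4A), the HNF4 motif CAAAGTC in 1 (NR5A2), the nuclear receptor motif AGGTCA in 3, the TATA box in 3 and the C/EBP motif TTGCNNAA in 0. Among 35116 RefSeq promoter windows, the shares with at least 1 match were 12.3% for the forkhead motif, 6.26% for ONECUT, 3.37% for HNF4, 13.8% for AGGTCA, 11.5% for the TATA box and 10.5% for C/EBP. None of the matches in the 7 genes overlapped another. A match describes letters in a window and does not show a bound site.

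The windows fell into CG-poor and CG-rich ones. The ratio of observed to expected CG dinucleotides was 0.158 for NR1H4 and 0.364 and 0.409 for the HNF4A windows, below the median of 0.579 over all windows. It was 0.849 for FOXA3, 0.927 for ONECUT1, 0.966 for FOXA1 and 1.05 for CEBPA. NR5A2 had a window of each kind, at 0 and 0.769. The 2 genes whose windows were all below the median, HNF4A and NR1H4, were also the 2 with the lowest FPKM in HepG2/metR cells, a pairing that was noticed after the values had been seen and that rests on 7 genes. In that library HNF4A, NR1H4 and NR5A2 each had at most 8 estimated fragments, so which 2 were lowest was not resolved.

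The deposited values have the form of log2(FPKM + 1). FPKM is the fragment count normalised to transcript length and sequencing depth, and levels between genes are compared on that scale. The FPKM values summed to between 473773 and 562382 per library. From the smallest steps between low values, the libraries were estimated to hold about 22400000 fragments for HepG2, 26800000 for HepG2/metR and 27500000 for HepG2/metR with oxamate. The lowest of 12 housekeeping genes stood at 8.32 FPKM or more in every library, so zeros of the factors did not come with zeros of genes that all cells use. A difference of log2(FPKM + 1) understates the change of a gene near 0, because the added 1 then sets its value.

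The label of the HepG2/metR libraries did not match their liver markers. All 8 hepatocyte markers (ALB, APOA1, APOA2, TTR, AFP, SERPINA1, TF and FGB) lay below their HepG2 level by 2-fold or more in HepG2/metR, and their summed level went from 30953 FPKM to 13.9 FPKM, and to 11.1 FPKM with oxamate. TTR was listed at 0 in both HepG2/metR libraries and APOA1 in the untreated one. The summed level of 10 mesenchymal markers was 11.2 FPKM in HepG2, 1688 FPKM in HepG2/metR and 1257 FPKM with oxamate. Most of it in the HepG2/metR libraries was VIM alone, at 1.23, 1576 and 1140 FPKM in the same order. Of the 6 kept by the filter, 4 were at least 2-fold higher: VIM, THY1, COL6A2 and LUM. The defining collagens COL1A1 and COL1A2 were under 1 FPKM in both HepG2/metR libraries. COL1A1 was at 1.22, 0.494 and 0.677 FPKM in the 3 libraries, and COL1A2 and COL3A1 were at 0.267 FPKM or less in all. The epithelial keratins KRT8 and KRT18 were at 605 FPKM or more in every library, whereas the other epithelial markers fell from HepG2 to HepG2/metR: EPCAM from 102 to 0.0900 FPKM, CLDN1 from 62.2 to 19.2 FPKM and CDH1 from 5.92 to 0.0365 FPKM. Bile duct markers moved in both directions, with KRT7 at 0.632, 127 and 110 FPKM in the 3 libraries, KRT19 at 214, 12.3 and 10.0 FPKM, SOX9 at 45.3, 15.4 and 13.2 FPKM and CFTR listed at 0 in all. Summed endothelial markers reached at most 0.347 FPKM and summed leukocyte markers at most 2.31 FPKM in any library. Many of these marker levels changed between HepG2 and HepG2/metR, as the factors did. Their part in the results below, those with oxamate included, was not tested. In bulk RNA, fewer cells of a type and less RNA per cell cannot be told apart.

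In HepG2 cells the factors were abundant, and in HepG2/metR cells not one reached 1 FPKM. The 8 levels ran from 0.181 to 74.3 FPKM in HepG2 with a median of 22.2, from 0.0156 to 0.712 FPKM in HepG2/metR with a median of 0.408, and from 0 to 1.11 FPKM with oxamate with a median of 0.632. Summed over the factors, the level was 237.6 FPKM in HepG2, 2.90 FPKM in HepG2/metR and 4.27 FPKM with oxamate. Of the 12210 genes with a mean of at least 1 FPKM over the libraries, 17.6% fell by 2-fold or more from HepG2 to HepG2/metR and 16.6% at least 2-fold higher. All 7 factors that passed this filter were at least 2-fold lower. Each passed it only through its HepG2 level, so the count had little freedom to come out otherwise and is read as a description. Among the 6402 genes at 10 FPKM or more in HepG2, 6.33% were under 1 FPKM in HepG2/metR, and among the 6 factors at that level all 6 were. That last count was added after the values had been seen.

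**Figure D1:**
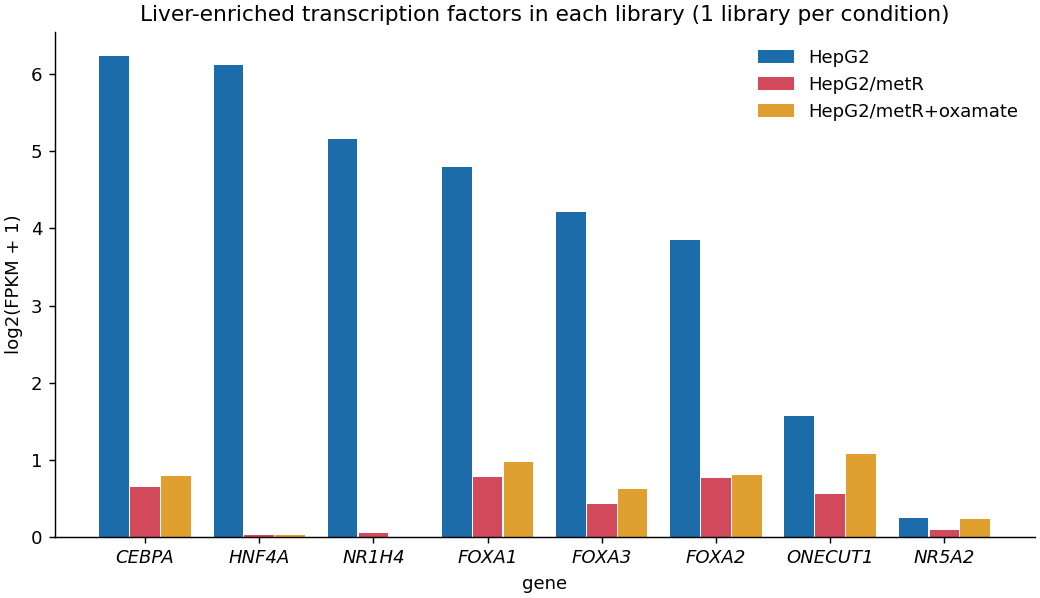
Level of the 8 factors, as log2(FPKM + 1), in HepG2, HepG2/metR and, with oxamate, HepG2/metR again, with 1 bar per library and genes ordered by their HepG2 level. The HepG2 bars are the tallest for every gene, and among the other bars only ONECUT1 with oxamate, at 1.11 FPKM, stands above 1 FPKM.

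HNF4A was the second most abundant of the factors in HepG2. Its level was 68.7 FPKM in HepG2, 0.0156 FPKM in HepG2/metR and 0.0153 FPKM with oxamate. The difference between HepG2/metR and HepG2 was -6.10 on the log2(FPKM + 1) scale. The gene, on chromosome 20, stood at percentile 89.5 of the kept genes in HepG2, with an estimated 1834 to 9915 fragments depending on which transcript length is taken. In each HepG2/metR library the estimate was at most 3 fragments, so its level there could not be told from 0. The ratio of the HepG2/metR to the HepG2 FPKM was 0.000227, with a 95% interval, for counting error alone, of 0 to 0.00168. The files hold 1 value per symbol, so use of the P1 and P2 promoters was not separated.

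NR1H4, the bile acid receptor encoded on chromosome 12, followed the same course. Its level was 34.7 FPKM in HepG2, 0.0328 FPKM in HepG2/metR and listed at 0 with oxamate, where a count of 0 allows up to 0.0734 FPKM (3 fragments on its shortest transcript). The difference between HepG2/metR and HepG2 was -5.11 on the log2(FPKM + 1) scale. An estimated 1156 to 2239 fragments in HepG2 stood against 1 to 3 in HepG2/metR, a ratio of 0.000945 with a counting interval of 1.83e-05 to 0.00404. The HepG2/metR libraries therefore could not be told apart for this gene.

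CEBPA, on chromosome 19, was the highest of the 8 in HepG2. It stood at 74.3 FPKM in HepG2, 0.558 FPKM in HepG2/metR and 0.723 FPKM with oxamate. The HepG2 level was 133 times that of HepG2/metR (95% counting interval 98.1 to 189), and the difference was -5.60 on the log2(FPKM + 1) scale. Unlike HNF4A and NR1H4, the gene kept a countable residue in HepG2/metR cells, estimated at 39 fragments against 4378 in HepG2.

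The FOXA genes lie on 3 chromosomes and all were low in HepG2/metR. FOXA1, on chromosome 14, was at 26.9 FPKM in HepG2, 0.712 FPKM in HepG2/metR and 0.966 FPKM with oxamate. FOXA2, on chromosome 20, was at 13.4, 0.702 and 0.747 FPKM in the same order. FOXA3, on chromosome 19, was at 17.5, 0.343 and 0.541 FPKM. Their differences between HepG2/metR and HepG2 were -4.02, -3.08 and -3.79 on the log2(FPKM + 1) scale. As FPKM ratios, HepG2 stood above HepG2/metR by 37.7 times for FOXA1 (counting interval 27.2 to 55.5), by 19.1 times for FOXA2 (14.2 to 26.6) and by 51.1 times for FOXA3 (32.6 to 88.0). The interval of FOXA2 lies wholly below those of FOXA1 and FOXA3, which overlap. Summed, the 3 genes gave 57.8 FPKM in HepG2, 1.76 FPKM in HepG2/metR and 2.25 FPKM with oxamate. FOXA1 and FOXA2 were the highest of the 8 factors in HepG2/metR, at estimates of 34 to 55 and 45 to 46 fragments, and their levels there did not differ beyond counting error.

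ONECUT1 and NR5A2 were low already in HepG2. ONECUT1, on chromosome 15, was at 1.95 FPKM in HepG2, 0.474 FPKM in HepG2/metR and 1.11 FPKM with oxamate. Its difference between HepG2/metR and HepG2 was downward on the log2(FPKM + 1) scale and passed the 2-fold threshold by a margin of 0.00245 only. Under upper-quartile scaling of the libraries it was -0.92 and missed the threshold. As an FPKM ratio, HepG2 stood 4.12 times above HepG2/metR (counting interval 2.49 to 7.02). NR5A2, on chromosome 1, was at 0.181, 0.0589 and 0.173 FPKM, did not pass the filter, and rested on an estimated 7 to 21, 3 to 8 and 8 to 24 fragments. Its HepG2 to HepG2/metR ratio of 3.06 had a counting interval of 0.637 to 16.7, so no difference was detectable at this depth.

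The order of the factors differed between the libraries. In HepG2 it ran from CEBPA through HNF4A, NR1H4, FOXA1, FOXA3, FOXA2 and ONECUT1 to NR5A2. In HepG2/metR it ran from FOXA1 through FOXA2, CEBPA, ONECUT1, FOXA3, NR5A2 and NR1H4 to HNF4A. The last 3 places in HepG2/metR rest on at most 8 estimated fragments each, and their order was not resolved at this depth. The places before them rest on an estimated 18 to 55 fragments each, and the order of adjacent ones was not tested. With no replicates the spread around each place is not known.

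**Figure D2:**
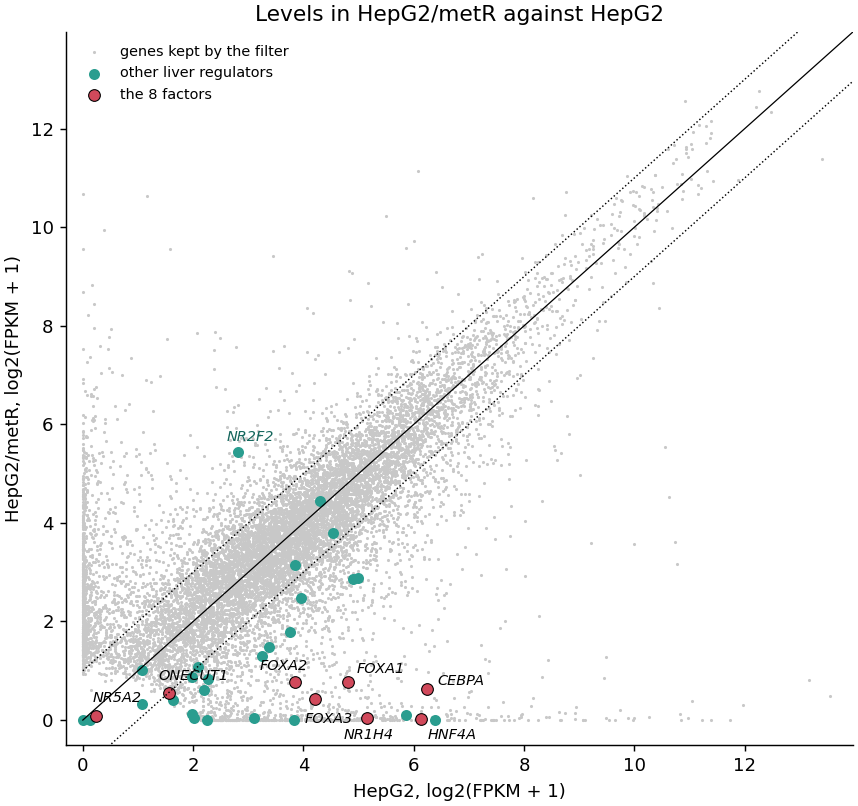
Level in HepG2/metR against level in HepG2, both as log2(FPKM + 1), for the 12210 genes kept by the filter (grey), 26 other liver regulators (green) and the 8 factors (red), with 1 library on each axis. The solid line marks equal levels and the dotted lines a 2-fold difference, and CEBPA, HNF4A and NR1H4 lie far to the right along the bottom edge whereas NR2F2 lies above the upper dotted line.

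Oxamate left the factors low. On the log2(FPKM + 1) scale, the differences between oxamate-treated and untreated HepG2/metR cells ran from -0.05 for NR1H4 to 0.52 for ONECUT1. On that scale 0 of the 7 kept factors passed the 1.5-fold threshold, which 3.82% of the 12210 genes passed downward and 4.30% upward. At 1.11 FPKM or less the added 1 leaves these genes little room to pass, so nothing is read from the 0. With a pseudocount of 0.1 in place of 1 there was 1 higher, and with 0.01 there were 2 higher and 1 lower. Over all 12210 genes, 1018 were higher and 607 lower at 0.1, and 1164 and 685 at 0.01. The 1 lower factor was NR1H4, at an estimated 1 to 3 fragments untreated and 0 with oxamate. This comparison shares the untreated HepG2/metR library with the one above, so a low value in that library enters both.

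ONECUT1 was the one factor whose oxamate ratio had an interval that did not hold 1. Its level with oxamate was 2.34 times the untreated one (95% counting interval 1.37 to 4.07), at an estimated 50 to 64 against 21 to 27 fragments. Its paralog ONECUT2, on chromosome 18, stood at 2.10 FPKM in HepG2, 0.325 FPKM in HepG2/metR and 0.894 FPKM with oxamate. Its ratio was 2.76 (2.27 to 3.37), and ONECUT3 was listed at 0 in all libraries. For HNF4A the ratio was 0.977, at an estimated 0 to 3 fragments in each library, and no interval was computed. Neither it nor the ratio of NR1H4, listed at 0 with oxamate, could be read from so few fragments. The intervals of the remaining factors held 1, with ratios of 1.36 for FOXA1 (0.870 to 2.205), 1.06 for FOXA2 (0.694 to 1.63), 1.58 for FOXA3 (0.878 to 3.10), 1.30 for CEBPA (0.843 to 2.02) and 2.94 for NR5A2 (0.625 to 15.2). These intervals cover the counting of fragments and not the variation between cultures. They were computed for a few genes only, so the share of all genes whose interval leaves out 1 is not known. Both ONECUT genes missed the 1.5-fold threshold on the log2(FPKM + 1) scale, at 0.52 each.

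**Figure D3:**
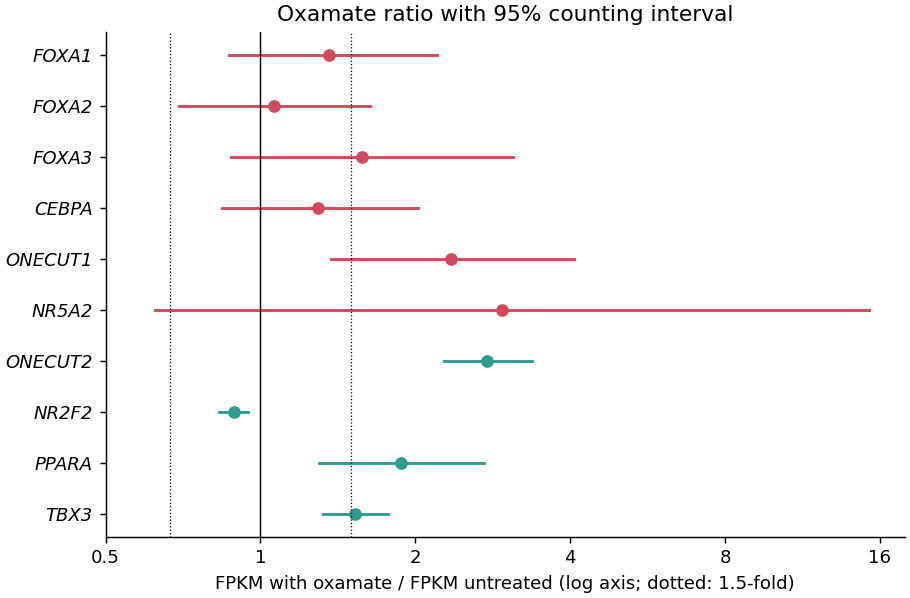
Ratio of FPKM with oxamate to FPKM without it in HepG2/metR cells, on a log axis, for 6 of the factors (red) and 4 other regulators (green); lines are 95% intervals for counting error only, and there is 1 library per condition. ONECUT1 at 2.34 and ONECUT2 at 2.76 lie to the right of 1 with their whole interval, as do PPARA and TBX3, while the intervals of the FOXA genes and CEBPA cross 1. NR2F2, at 0.887 (0.831 to 0.947), lies wholly to the left of 1. ONECUT2, PPARA and TBX3 were picked for their large oxamate differences, so their place in the plot is no separate result.

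Other regulators of liver genes were mostly lower as well. Of 28 such genes, 25 passed the filter, 12 of them only through the HepG2 library. In HepG2/metR 18 of the 25 were at least 2-fold lower, beside 17.6% of all 12210 genes. Another 2 were at least 2-fold higher, beside 16.6%, and 5 did neither. The median difference was -1.85 on the log2(FPKM + 1) scale, beside 0.02 over all 12210 genes. Among the deepest falls was that of NR0B2 (SHP), the repressor induced by NR1H4, at 82.2 FPKM in HepG2 and listed at 0 in both HepG2/metR libraries. HLF, a leucine zipper factor of the circadian output family, was at 57.3, 0.0811 and 0.158 FPKM. PROX1, needed for hepatoblast migration during liver development, was at 13.1, 0 and 0.00412 FPKM.

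NR2F2 was among those that rose. NR2F2 (COUP-TFII), an orphan nuclear receptor of mesenchyme and veins, was at 6.02, 42.3 and 37.5 FPKM. It was 7.02 times as high in HepG2/metR (counting interval 6.12 to 8.08), and it was the highest of the 28 in both HepG2/metR libraries, as NR0B2 was in HepG2. CEBPG, which had the largest upward difference among those that did not pass the threshold, was at 18.6, 20.7 and 15.0 FPKM. With oxamate, 0 of the 25 passed the 1.5-fold threshold in either direction on the log2(FPKM + 1) scale. That count depended on the scale, with 5 higher at a pseudocount of 0.1, 8 at 0.01 and 3 when the FPKM totals were made equal. Over all 12210 genes the higher calls also grew, from 525 to 1018, 1164 and 1184 in the same order. The largest differences on the log2(FPKM + 1) scale were those of PPARA, TBX3 and ONECUT2. PPARA was at 1.12 FPKM untreated and 2.10 FPKM treated, a ratio of 1.88 (counting interval 1.30 to 2.72), and TBX3 at 6.40 and 9.78 FPKM, a ratio of 1.53 (1.32 to 1.77).

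**Figure D4:**
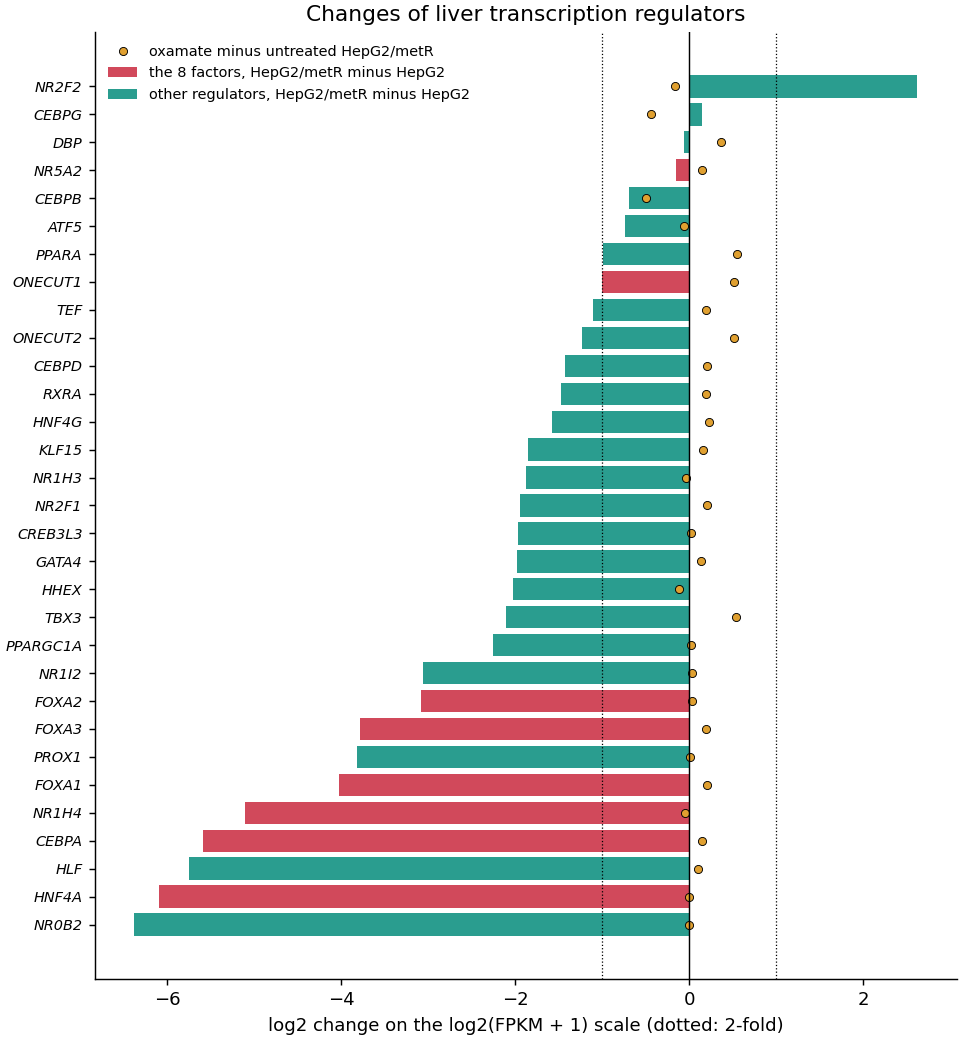
Difference in log2(FPKM + 1) between HepG2/metR and HepG2 for the 8 factors (red bars) and 23 other regulators kept by the filter (green bars), with the difference between oxamate-treated and untreated HepG2/metR as orange points; 1 library per condition. NR0B2 and HNF4A reach the farthest to the left, NR2F2 alone of the genes drawn passes the dotted 2-fold line to the right, and the orange points stay between the dotted lines.

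Genes commonly described as targets of the factors were also followed. Over 49 distinct target genes other than the factors, 34 passed the filter, 25 of them only through HepG2. In HepG2/metR 31 were at least 2-fold lower, 2 were higher and 1 did neither, with a median difference of -5.22 on the log2(FPKM + 1) scale. By list, 9 of 9 kept HNF4A targets, 5 of 6 FOXA targets, 6 of 6 CEBPA targets, 10 of 11 NR1H4 targets, 7 of 7 NR5A2 targets and 4 of 5 ONECUT1 targets were at least 2-fold lower. Over all 12210 genes the share was 17.6%. Of those kept targets, 8, 4, 4, 8, 5 and 4 in the same order passed the filter only through HepG2, so their fall was largely fixed by the filter and the counts are a description. The lists share genes, and 3 of their genes are also among the 28 regulators. ALB, APOA1, APOA2, TTR, AFP, SERPINA1 and FGB are also hepatocyte markers above, so their falls are reported in both places.

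Among HNF4A targets the highest in HepG2 were the apolipoprotein genes APOA2 and APOA1. APOA2 was at 11976, 0.407 and 0.273 FPKM, and APOA1 at 2380, 0 and 0.198 FPKM, in the order HepG2, HepG2/metR, HepG2/metR with oxamate. SERPINA1, which encodes the protease inhibitor alpha-1 antitrypsin and is listed for both HNF4A and CEBPA, kept the highest level of these targets in HepG2/metR, at 1708, 11.2 and 7.10 FPKM. The FOXA and CEBPA targets were led by albumin, ALB, at 9206, 0.747 and 0.617 FPKM, and the FOXA target AFP, the fetal serum protein, was at 3989, 0.241 and 0.598 FPKM. CPS1, the first enzyme of the urea cycle, was at 11.6, 2.08 and 2.67 FPKM. Among NR1H4 targets the fibrinogen genes FGG and FGA were at 802 and 533 FPKM in HepG2 and listed at 0 in HepG2/metR. Among NR5A2 targets APOM was at 188, 2.66 and 1.56 FPKM and the HDL receptor gene SCARB1 at 89.5, 16.7 and 13.1 FPKM. The ONECUT1 target TTR, also a target of HNF4A and FOXA, was at 302 FPKM in HepG2 and listed at 0 in the other libraries.

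A few targets stood apart from the rest. IGFBP1, a FOXA target that encodes a binding protein for insulin-like growth factors, was at 69.2, 47.7 and 27.9 FPKM, and its difference of -0.53 between HepG2/metR and HepG2 did not pass the 2-fold threshold. SDC1, the proteoglycan gene on the NR1H4 list, was lower but still at 63.4 FPKM in HepG2/metR, from 145 FPKM. SLCO1B3, a transporter gene on the same list, was higher, at 0.0146, 4.27 and 6.78 FPKM. With oxamate 2 of the 34 passed the 1.5-fold threshold, both downward: SERPINA1 by a difference of -0.59 and IGFBP1 by -0.75 on the log2(FPKM + 1) scale. Over all 12210 genes 3.82% passed it downward and 4.30% upward. As 25 of the 34 passed the filter only through HepG2, most had little room to pass, and nothing is read from the 2.

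Within their protein families, the liver-enriched members held far smaller shares of the FPKM in HepG2/metR. Of 45 forkhead genes listed, 22 passed the filter, and 9 of those fell by 2-fold or more in HepG2/metR, 4 rose by as much and 9 did neither. Over all 12210 genes 17.6% were lower and 16.6% higher by that threshold. The 9 that fell include FOXA1, FOXA2 and FOXA3, and 5 of the 22 passed the filter only through HepG2. The FOXA genes held 23.2% of the summed forkhead FPKM in HepG2, 0.973% in HepG2/metR and 1.26% with oxamate. The other forkhead genes summed to 192, 179 and 177 FPKM in the same libraries. The highest forkhead genes in HepG2 were FOXQ1 at 52.3 FPKM, FOXA1 at 26.9 FPKM and FOXK2 at 26.6 FPKM. In HepG2/metR they were FOXM1, a driver of mitotic genes, at 45.2 FPKM, FOXD1 at 32.8 FPKM and FOXK2 at 24.8 FPKM, while FOXQ1 was listed at 0.

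Nuclear receptors showed a like shift. Of 48 genes listed, 30 passed the filter, with 11 at least 2-fold lower, 7 higher and 12 neither, beside the same shares over all genes. The 11 include HNF4A and NR1H4, and 6 of the 30 passed the filter only through HepG2. HNF4A, NR1H4 and NR5A2 together held 24.1% of the summed nuclear receptor FPKM in HepG2, 0.0461% in HepG2/metR and 0.0738% with oxamate, beside sums of 327, 233 and 255 FPKM for the others. In HepG2 the highest were NR0B2, HNF4A and NR1H4, and in HepG2/metR they were NR2F2 at 42.3 FPKM, the oxysterol receptor gene NR1H2 at 30.1 FPKM and RXRB at 21.6 FPKM. Among 6 C/EBP genes grouped by symbol, CEBPA held 49.2% of the summed FPKM in HepG2 and 0.964% in HepG2/metR, where CEBPZ at 27.9 FPKM, CEBPG at 20.7 FPKM and CEBPB at 7.84 FPKM were the highest. CEBPZ, which shares only its name pattern with the leucine zipper genes, had been at 41.0 FPKM in HepG2. CEBPB, the paralog of CEBPA known from the acute phase response, had been at 13.3 FPKM in HepG2. Its difference of -0.70 on the log2(FPKM + 1) scale did not pass the 2-fold threshold.

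**Figure D5:**
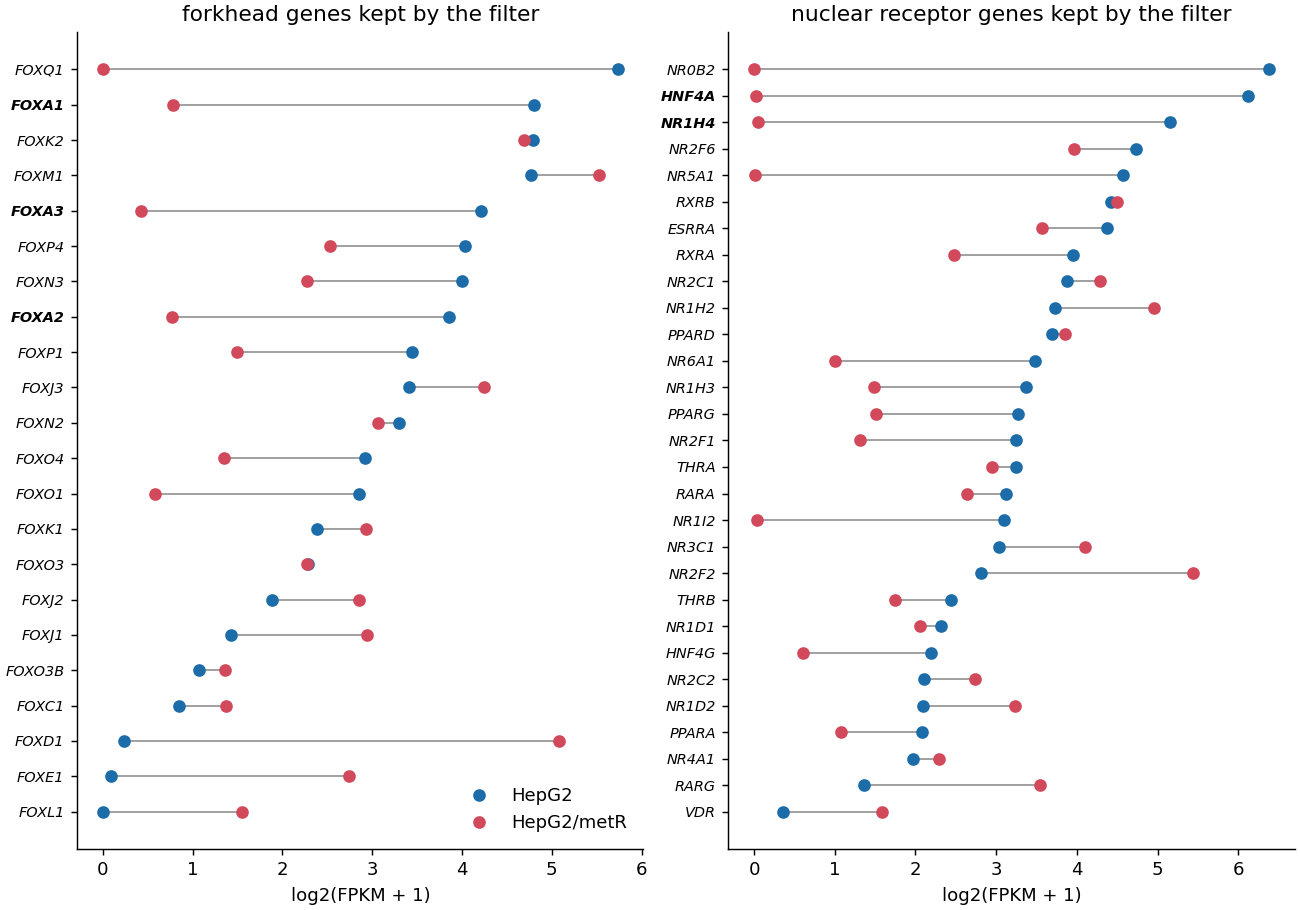
Level as log2(FPKM + 1) in HepG2 (blue) and HepG2/metR (red) for the 22 forkhead genes and 29 nuclear receptor genes kept by the filter, ordered by HepG2 level, with the liver-enriched factors in bold; 1 library per condition. The bold genes span the widest gaps together with FOXQ1, FOXD1, NR0B2 and NR5A1, whereas FOXK2, FOXO3 and RXRB have nearly the same level in both libraries.

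Genes next to the factors on the chromosome included some that fell, some that rose and others that kept their level. Of 48 neighbours, taken as the nearest 3 listed genes on each side, 23 were at 1 FPKM or more in HepG2. Of these 6 fell by 2-fold or more in HepG2/metR, beside 21.2% of the 11293 genes at that HepG2 level, small-RNA genes left out, a share added after the values had been seen. Among the 23, 4 were under 1 FPKM there and 2 were under 0.1 FPKM. The protein-coding neighbours that fell were FITM2, near HNF4A, at 38.7 FPKM in HepG2 and 7.26 FPKM in HepG2/metR, LRP3, near CEBPA, at 17.5 and 2.44 FPKM, MYO5C, near ONECUT1, at 9.04 and 0.621 FPKM, and MIPOL1, beside FOXA1, at 3.70 and 1.04 FPKM. Those at least 2-fold higher included MYO5A, near ONECUT1, at 1.30 and 6.95 FPKM, and GAS2L3, beside NR1H4, at 2.53 and 6.32 FPKM. KIF14, near NR5A2, rose as well, from 4.68 to 14.5 FPKM. CEBPG, beside CEBPA, was at 18.6 FPKM in HepG2 and 20.7 FPKM in HepG2/metR. SYMPK, beside FOXA3, was at 19.7 and 25.1 FPKM, SERINC3, near HNF4A, at 79.3 and 73.5 FPKM, and SCYL2, near NR1H4, at 11.3 and 12.5 FPKM.

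The 2 neighbours under 0.1 FPKM were noncoding genes. LINC00261, beside FOXA2, was at 17.0 FPKM in HepG2, and HNF4A-AS1, beside HNF4A, was at 3.95 FPKM, and both were listed at 0 in both HepG2/metR libraries. CEBPA-AS1 was at 3.45, 0.119 and 0.133 FPKM. The sources used here do not say whether fragments were counted by strand, so fragments of an antisense gene and of its partner cannot be told apart.

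The genes with the most similar pattern to a factor were found by the distance between their 3 log2(FPKM + 1) values, small RNA genes left out. For HNF4A they were GJB1 at a distance of 0.034 and AZGP1 at the same rounded distance, followed by CPN2, CLDN4 and BEX1. For NR1H4 METTL7A was nearest, at 0.028. CEBPA was nearest to VTN at 0.33 and ALDH2 at 0.34, FOXA1 to KANK1 at 0.10 and PLXNB1 at 0.15, and FOXA2 to LTBP3 at 0.11 and TMEM198 at 0.18. FOXA3 was nearest to SERPINI1 at 0.15 and ITPKA at 0.16, and ONECUT1 to FIRRE at 0.11 and GPLD1 at 0.13. Over 3 libraries such a distance describes a shared level and says nothing of shared control.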

How the data were processed

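RNA-seq libraries of HepG2, HepG2/metR and HepG2/metR with oxamate, 1 per condition, were grouped by their labels. The authors deposited 1 log2 value per symbol and library. That the values are log2(FPKM + 1) was inferred from the values themselves. The submitters' processing notes name STAR 2.5.1b, Cufflinks 2.2.1, FastQC 0.11.5 and build hg19, and the annotation and strand setting are not given in the sources used here. Of 25270 symbols, 28 resembled dates and were not used by name.

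FPKM was computed as 2 to the power of the value, minus 1. The deposited values were not rescaled, and genes with a mean of at least 1 FPKM were kept. Thresholds were 2-fold between HepG2/metR and HepG2 and 1.5-fold with oxamate. Without replicates no test across genes was run. The weight of 1 fragment was read from the steps of low values of genes with 1 transcript in GENCODE release 29 (between 73 and 95 genes near the mode per library), and 95% exact binomial intervals were computed from the estimated fragments of the shortest transcript of at least 1000 bases. They cover counting error only, as amplified fragments are not independent molecules.

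The factors, gene lists and named genes were chosen with earlier results of these data known. Named were all 8 factors, the 4 other regulators with the largest fall and the 4 with the largest rise (only 3 rose), the 3 with the largest oxamate difference, the 2 highest target genes of each list and the 3 highest genes of each family in HepG2 and in HepG2/metR, the noncoding neighbours, and the 2 genes nearest in pattern to each factor (5 for HNF4A). Some genes that this rule names are counted in their lists but are not reported here by name or drawn. NR5A1, the neighbours given with values and the genes first named under other observations were chosen after their values had been seen. Promoters were matched by symbol to RefSeq windows on GRCh38.p14. The calculation was tested on simulated data in which only genes with a mean of 10 FPKM or more were changed. That test does not cover falls to under 1 FPKM, where the factors lay in HepG2/metR. Alternatives were other pseudocounts, scalings, filters and thresholds. Protein sequences were not used here. Computation ran in Python 3.11.15 with pandas 2.3.3, numpy 2.4.6 and scipy 1.17.1, and plots were drawn with matplotlib 3.10.9.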

Additional observations from a re-analysis of the deposited data

How the results depend on the processing

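HNF4A, FOXA1, FOXA2, FOXA3, CEBPA and NR1H4 stayed below their HepG2 level by 2-fold or more in HepG2/metR under every pseudocount, scaling and threshold tried. Counts of lower factors ranged from 5 to 7. ONECUT1 missed the threshold under median-of-ratios size factors (-0.99 on the log2(FPKM + 1) scale), upper-quartile scaling (-0.92) and equal FPKM totals (-0.94). With oxamate, the number of factors at least 1.5-fold higher was 0, but 1 with a pseudocount of 0.1, 2 with 0.01 (ONECUT1 and FOXA3) and 1 with equal totals, with or without small-RNA genes (ONECUT1 at 0.60 with and 0.61 without). The number lower was 1 with a pseudocount of 0.01 (NR1H4). Other regulators higher with oxamate went from 0 to 5 with a pseudocount of 0.1, to 8 with 0.01 and to 3 under equal totals, with or without small-RNA genes. With a filter of 5 FPKM, lower regulators in HepG2/metR went from 18 to 7 and higher targets from 2 to 1, as fewer genes were kept. Over all genes, calls with oxamate went from 525 higher and 466 lower to 1184 higher and 192 lower under equal totals, which moved the median of all genes from 0.02 to 0.17, and to 1289 and 173 without small-RNA genes. The all-gene calls with oxamate were 1018 higher and 607 lower at a pseudocount of 0.1, and 1164 and 685 at 0.01. At a 1.5-fold threshold HepG2/metR gave 3301 lower and 3262 higher genes, and at 2-fold oxamate gave 64 and 66. No paired analysis was possible because there was 1 library per condition, and no library could be left out for the same reason. Depth limited NR5A2 throughout, and HNF4A and NR1H4 in the HepG2/metR libraries.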

Other observations

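Some relatives of the factors were higher in HepG2/metR than in HepG2. Among forkhead genes kept by the filter the 4 at least 2-fold higher were FOXD1, at 0.179, 32.8 and 22.2 FPKM in HepG2, HepG2/metR and HepG2/metR with oxamate, FOXE1, at 0.0627, 5.67 and 9.84 FPKM, FOXJ1, the factor of motile cilia, at 1.68, 6.68 and 6.52 FPKM, and FOXL1, at 0, 1.93 and 2.01 FPKM. Among nuclear receptor genes the 7 included NR2F2, NR1H2, NR1D2, the glucocorticoid receptor gene NR3C1 at 7.20, 16.1 and 19.4 FPKM, the retinoic acid receptor gene RARG at 1.57, 10.6 and 11.4 FPKM, and VDR. With oxamate, FOXE1, FOXK1, FOXN3, NR1D2 and PPARG were at least 1.5-fold higher than in untreated HepG2/metR cells. Over all 12210 genes 4.30% were. PPARG, a regulator of fat storage, was at 8.63, 1.85 and 4.59 FPKM.

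NR5A1 (SF-1), the steroidogenic paralog of NR5A2, was at 22.7 FPKM in HepG2, 0.0117 FPKM in HepG2/metR and 0.0114 FPKM with oxamate, and so was above NR5A2, at 0.181 FPKM, in HepG2. This gene was singled out after its values had been seen.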
